A study of Mus musculus with 24 samples.

Results

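The 10 enzymes described here make serine and carry its carbon through the folate pool: Phgdh, Psat1 and Psph of serine synthesis, the serine hydroxymethyltransferases Shmt1 and Shmt2, the folate enzymes Mthfd1, Mthfd2, Mthfd1l and Aldh1l2, and thymidylate synthase, Tyms. They were taken by symbol from the 23478 genes of the count table, and all 10 were among the 12625 genes with enough counts to be tested. The study sequenced RNA from 4T1-T, a clonal line of the mouse breast cancer line 4T1, in 24 libraries, 4 (A to D) in each of 6 groups. Cells had been recovered from primary tumors or from lung metastases by selection in 6-thioguanine, which the tumor cells survive and host cells do not, and cultured in DMEM with non-essential amino acids. At each site they carried the control hairpin shRenilla or a hairpin against Asns, shAsns-1 or shAsns-2. All groups share the line, infection with a hairpin, the drug selection and the culture. Host mice and their age are not given in the sources used here, nor whether replicates came from separate mice or cultures, so each p-value reflects the scatter of these libraries, which may be technical.

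Asns makes asparagine from aspartate and glutamine, and its transcription rises when amino acids run short. In the serine pathway, Phgdh, Psat1 and Psph turn a glycolytic intermediate into serine by oxidation, transamination and dephosphorylation. Shmt1 in the cytosol and Shmt2 in mitochondria then split serine into glycine and a carbon unit bound to tetrahydrofolate. Mthfd2, Mthfd1l and Aldh1l2 handle that unit in mitochondria and Mthfd1 in the cytosol, and it is spent on purines, on thymidylate and on methionine. Several of these genes, like Asns, are known to be induced by Atf4, a transcription factor activated when amino acids are scarce.

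Library totals ran from 8480908 counts (tumor shAsns-2 A) to 38049196 counts. The first principal component of log2 CPM (counts scaled to a common library size) held 38.8% of the variance, and on it the 4 libraries labelled tumor shAsns-1 lay at -21.6 to -14.3, among the lung libraries (-27.0 to 0.199) and away from the other 8 tumor libraries (32.4 to 43.7). On the second component (12.2% of the variance), the libraries labelled tumor shAsns-1 lay apart, at 21.3 to 30.8. All lung libraries (-29.2 to 9.85) and the other 8 tumor libraries (-7.73 to 13.4) lay below them there. Of the lung libraries, shAsns-2 D lay at 0.199 on the first component. Lung shRenilla B lay at 9.85 on the second, while the other shRenilla lung libraries lay at -13.8 to -8.49. Of the 5 listed carcinoma epithelium markers, Krt8 and Krt18 were present in all groups, from 138 CPM upward. Over the libraries Krt19 ran from 2.12 to 8.08, Epcam from 8.27 to 134 and Cdh1 from 18.6 to 298 CPM. The 9 fibroblast markers summed to 15.7 to 70.0 CPM, of which Pdgfra made 14.5 to 48.1 CPM. Summed markers of endothelium stayed at or under 1.39 CPM and those of lung epithelium at or under 0.253 CPM. The 10 leukocyte markers summed to 11.1 to 27.7 CPM over the libraries, mostly from Cd14 (9.69 to 20.2 CPM), while Ptprc stayed at or under 0.562 CPM.

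Asns, the target of the hairpins, was read at 84.6, 84.6, 61.7 and 100 CPM in tumor shRenilla A to D. In the libraries labelled tumor shAsns-1 it was read at 185, 152, 185 and 159 CPM, and in tumor shAsns-2 at 48.3, 42.3, 30.4 and 26.2 CPM. Asns was thus higher in every library labelled shAsns-1 and lower in every tumor library labelled shAsns-2 than in the controls. Its log2 fold change was 1.04 ± 0.16 (SE, n = 4 against 4; edgeR adjusted p = 1.47e-05) for tumor shAsns-1 and -1.18 ± 0.16 (edgeR adjusted p = 0.00122; 0.0502 when only the compared groups entered the fit) for tumor shAsns-2. In lung the control libraries averaged 63.6 ± 7.89 CPM (SD, n = 4), those labelled shAsns-1 averaged 194 ± 18.2 CPM (log2 fold change 1.61, edgeR adjusted p = 2.62e-06), and those labelled shAsns-2 averaged 44.6 ± 6.51 CPM (-0.51, edgeR adjusted p = 0.405). The Asns RNA therefore goes against the label shAsns-1 at both sites. Every direction below is that of the library labelled so, and hairpin, label and the history of the cells cannot be told apart.

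To place the enzymes beside the amino acid response, the stretches upstream of RefSeq gene starts (build GRCm38.p6) are shown for Mthfd2 and Shmt1, which were lowest relative to control in the libraries labelled tumor shAsns-1, for Psat1, whose group means were close there, and for Asns. Parts covered by any annotated exon were left off, and each runs 5′ to 3′ on the gene's strand. Capitals mark matches on either strand to the CCAAT box, to the GC box core GGGCGG, to the E-box CACGTG or to TGATGNAA, which C/EBP and Atf proteins bind in amino acid response elements.
Mthfd2, chr6:83317607-83317854, minus strand: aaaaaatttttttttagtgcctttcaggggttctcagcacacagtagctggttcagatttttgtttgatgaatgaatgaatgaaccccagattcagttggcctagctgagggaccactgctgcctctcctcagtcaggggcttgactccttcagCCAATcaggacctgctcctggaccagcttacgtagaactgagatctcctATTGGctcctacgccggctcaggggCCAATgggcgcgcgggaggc
Shmt1, chr11:60811266-60811466, minus strand: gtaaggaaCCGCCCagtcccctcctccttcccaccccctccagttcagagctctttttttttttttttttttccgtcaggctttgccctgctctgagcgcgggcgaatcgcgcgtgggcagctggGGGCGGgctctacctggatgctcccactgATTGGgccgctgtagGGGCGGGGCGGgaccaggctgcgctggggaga
Psat1, chr19:15925060-15925309, minus strand: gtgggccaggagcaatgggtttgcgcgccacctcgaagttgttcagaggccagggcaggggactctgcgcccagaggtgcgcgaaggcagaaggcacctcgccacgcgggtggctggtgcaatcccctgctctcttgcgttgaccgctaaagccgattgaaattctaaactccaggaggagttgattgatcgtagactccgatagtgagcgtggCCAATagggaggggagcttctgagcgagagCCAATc
Asns, chr6:7693255-7693459, minus strand: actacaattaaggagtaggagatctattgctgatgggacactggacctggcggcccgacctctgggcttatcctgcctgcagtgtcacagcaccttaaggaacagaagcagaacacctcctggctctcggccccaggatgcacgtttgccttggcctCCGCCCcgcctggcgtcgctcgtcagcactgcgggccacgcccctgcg
The Mthfd2 stretch holds 3 CCAAT matches, that of Psat1 holds 2, and that of Shmt1 holds 1 CCAAT and 4 GGGCGG matches, of which 2 overlap. Over the full window of 250 upstream bases, 9 of the 10 enzymes were in the promoter table, and 6 of those 9 held CCAAT, 6 held GGGCGG, 1 (Tyms) held CACGTG and 0 held TGATGNAA. Of 32851 promoter windows of that length, 33.8% held CCAAT, 32.7% GGGCGG, 6.02% CACGTG and 3.45% TGATGNAA. The Asns window held 1 TGATGNAA match, in the exon-covered part not printed. Psat1 has 2 starts in the table, with its CCAAT matches upstream of the one printed and its GGGCGG upstream of the other, so it was counted over 2 windows while these shares are per window. The matches describe letters in the windows only.

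Levels differed between the enzymes far more than between groups. Per kilobase of exon, Psat1, the transaminase of serine synthesis, was highest, with a mean of 117 CPM per kb over the 24 libraries (85.4 to 148). Mthfd2, the mitochondrial methylene-tetrahydrofolate dehydrogenase, followed at 43.5 CPM per kb (30.3 to 54.0), and its range did not meet that of Psat1. Psph, the phosphatase that releases serine, Tyms and Shmt2 came next at 28.9, 26.9 and 26.5 CPM per kb, with library ranges that overlapped throughout. Mthfd1 (21.2), Mthfd1l (20.2) and Phgdh (18.9 CPM per kb) overlapped in the same way, and Shmt1 stood at 15.2 CPM per kb (11.3 to 19.2). Aldh1l2, which oxidises formyl-tetrahydrofolate in mitochondria, was lowest at 0.904 CPM per kb (0.590 to 1.52), below every library of every other member.

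**Figure D1:**
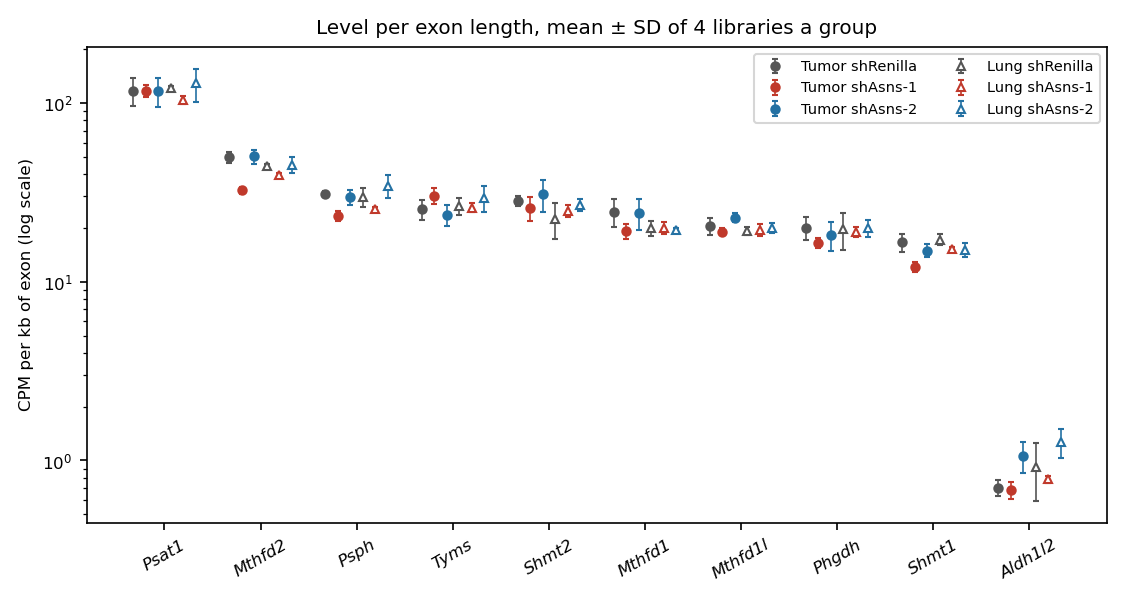
Level of each enzyme per kilobase of exon (log axis), as the mean ± SD of 4 libraries in each group of site and hairpin. Psat1 (mean 117 CPM per kb over all libraries) stands above and Aldh1l2 (0.904) below the other 8 enzymes in all 6 groups.

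Some of these levels depend on how reads of near copies were assigned, which the sources used here do not give. Phgdh has 17 copies at 90.6 to 98.7% identity in GENCODE M21, of which the 2 counted ones held 1.67 to 5.24% of its CPM. Tyms has the pseudogene Tyms-ps (chr10:87966847-87967761, 93.9% identical over 935 bases), which was counted at 63.2 to 85.4% of the Tyms CPM. Psat1 has 1 copy, Gm12611 (91.0% identical over 1056 bases), which was not counted under that symbol. The strand setting is not given either, and exons of Psph share 452 bases with Cct6a on the other strand, those of Aldh1l2 share 1056 bases with D10Wsu102e, and those of Shmt1 share 184 bases with Smcr8. Smaller overlaps are those of Mthfd1 with Gm47525 (37 bases) and Shmt2 with Ndufa4l2 (32 bases). Levels of these 8 enzymes, and with them the order above, are therefore uncertain. Of the neighbours, Cct6a and D10Wsu102e were called in tumor shAsns-1 against shRenilla, as given below. In the other 10 comparisons Cct6a, D10Wsu102e and Smcr8 had log2 differences from -0.20 to 0.26 and edgeR adjusted p of at least 0.0720.

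In primary tumor cells labelled shAsns-1, 4 of the 10 enzymes fell relative to shRenilla and none rose: Mthfd2, Shmt1, Psph and Mthfd1. The falls were modest, to 0.654 to 0.781 of the control level. They were those of Psph in serine release, Shmt1 in cytosolic carbon transfer, Mthfd1 in cytosolic and Mthfd2 in mitochondrial folate interconversion. The mitochondrial enzymes Mthfd1l and Aldh1l2 were not called, and the Mthfd1 call was fragile, as given below. Over all 12625 tested genes, 17.7% fell and 16.2% rose in this comparison (edgeR, adjusted p under 0.05), so change was widespread, and 4 of 10 lower is read against that share without a test, since the enzymes were chosen with earlier results known. The median log2 fold change of the 10 was -0.21, against -0.01 over all tested genes.

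Of serine synthesis, the last enzyme fell, and Phgdh and Psat1 did not pass the edgeR test. Psph (chr5:129765558-129787449) was read at 137, 132, 128 and 139 CPM in tumor shRenilla A to D and at 110, 95.2, 101.9 and 97.3 CPM in the libraries labelled tumor shAsns-1. All 4 of the latter lay below all 4 controls, as did those of 18.6% of all tested genes. Shmt1, Mthfd1 and Mthfd2 were separated in the same way. The log2 fold change of Psph was -0.41 ± 0.10 (SE; edgeR adjusted p = 0.00356, at most 0.0176 over 15 alternatives). Cct6a, a chaperonin subunit gene that shares exon bases with Psph, moved by -0.28 (edgeR adjusted p = 0.0206). Over the libraries Cct6a was counted at 840 to 1533% of the Psph CPM. Its part in the Psph value was not tested, so the Psph fall is uncertain to that extent. Phgdh, the first enzyme, averaged 40.9 ± 2.57 CPM against 49.8 ± 7.23 CPM (SD, n = 4 each), a log2 difference of -0.28 with a 95% interval from -0.58 to 0.02 (edgeR adjusted p = 0.134). It was called by limma with library weights (adjusted p = 0.00532) and by edgeR without both lung libraries that stand apart (0.0346), and the other 13 alternatives did not call it. Its groups overlapped, since shRenilla C, at 40.0 CPM, lay among the libraries labelled shAsns-1. Psat1 averaged 499 ± 39.9 against 498 ± 90.8 CPM, and the interval of its log2 difference ran from -0.30 to 0.30, so a change of up to about that size in either direction was not detectable.

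The cytosolic and the mitochondrial serine hydroxymethyltransferase were read apart. Shmt1 (chr11:60788104-60811718), the cytosolic enzyme, stood at 59.8, 74.6, 58.5 and 64.7 CPM in tumor shRenilla and at 51.2, 45.7, 47.5 and 43.9 CPM in the libraries labelled tumor shAsns-1, with no overlap. Its log2 fold change was -0.45 ± 0.09 (edgeR adjusted p = 0.000541, at most 0.00473 over 15 alternatives), while its overlapping neighbour Smcr8 moved by -0.05 (edgeR adjusted p = 0.759). Shmt2, the mitochondrial enzyme, averaged 80.3 ± 12.4 against 88.1 ± 6.01 CPM, with overlapping libraries and a 95% interval from -0.44 to 0.17. Whether Shmt1 and Shmt2 differed in their change was not tested.

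Mthfd2 (chr6:83305691-83325908) showed the largest fall of the 10 enzymes. It was read at 160, 188, 165 and 179 CPM in tumor shRenilla A to D, and at 119, 116, 106 and 112 CPM in the libraries labelled tumor shAsns-1. All 4 of the latter lay far below the lowest control. The log2 fold change was -0.61 ± 0.09 (95% interval -0.80 to -0.43; edgeR adjusted p = 9.03e-06), and each of 15 alternatives called it, with adjusted p of at most 8.38e-05. Mthfd1 (chr12:76255298-76319803), the trifunctional cytosolic enzyme, stood at 98.4, 108, 136 and 92.7 CPM against 77.7, 91.7, 78.4 and 92.7 CPM. Its lowest control and its highest library labelled shAsns-1 thus agreed to 3 digits, and shRenilla C was high. Its log2 fold change of -0.36 ± 0.13 (edgeR adjusted p = 0.0303) was no longer called without tumor shAsns-1 A or C, or without tumor shRenilla B or C, where the adjusted p reached 0.143.

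Mthfd1l, the mitochondrial formate-forming synthetase, averaged 84.6 ± 3.76 against 91.0 ± 9.61 CPM (log2 difference -0.11, 95% interval -0.29 to 0.08). Aldh1l2 averaged 5.14 ± 0.572 against 5.28 ± 0.527 CPM (-0.04, interval -0.43 to 0.34). Neither was called, and in both the libraries overlapped. D10Wsu102e, on the other strand of Aldh1l2, fell by 0.31 in this comparison (edgeR adjusted p = 0.00380), and its part in the Aldh1l2 value was not tested. Tyms, which methylates dUMP to make thymidylate, averaged 184 ± 18.7 against 155 ± 19.8 CPM (0.25, interval -0.01 to 0.51, edgeR adjusted p = 0.123). Summed with its pseudogene, Tyms gave 0.28 (edgeR adjusted p = 0.125). Unsummed, it was called by limma with library weights (adjusted p = 0.0366) and by edgeR without both lung libraries that stand apart (0.0372), and by no other of the 15 alternatives.

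Markers of cell identity moved in the same comparison. The summed 9 fibroblast markers ran from 15.7 to 18.2 CPM in tumor shRenilla and from 24.0 to 32.4 CPM in the libraries labelled tumor shAsns-1, of which Pdgfra made 14.5 to 17.1 and 23.1 to 31.5 CPM, with Col1a1 at most 0.0701 CPM and with Pdgfrb and Thy1 at 0 in the latter group. The summed 10 leukocyte markers ran from 15.9 to 20.5 CPM in tumor shRenilla, where Emr1, Cd3e, Cd3d and Ms4a1 were at 0, and from 11.1 to 15.0 CPM under the label shAsns-1, where Ms4a1 was at 0. The 5 epithelial markers summed to 626 to 776 CPM and to 441 to 586 CPM. Within that list, the adhesion genes Epcam and Cdh1 stood at 60.1 to 104 and 151 to 288 CPM in tumor shRenilla. Under the label tumor shAsns-1 they stood at 15.5 to 21.7 and 29.9 to 47.6 CPM. In lung shRenilla they stood at 19.7 to 22.0 and 27.7 to 44.2 CPM. The ranges were 8.27 to 12.9 and 18.6 to 24.5 CPM under the label lung shAsns-1. For lung shAsns-2 they were 17.4 to 24.4 and 33.4 to 35.6 CPM. The keratins of the list did not fall in this way. Krt8 stood at 164.7 to 183.6 CPM in tumor shRenilla and at 184.0 to 244.8 CPM under the label shAsns-1. In the same order, Krt18 stood at 180.6 to 256.5 and 206.7 to 266.9 CPM, and Krt19 at 3.97 to 6.64 and 3.33 to 4.70 CPM. The part of these markers in the enzyme changes was not tested, and fewer cells of a kind cannot be told apart from less RNA per cell.

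**Figure D2:**
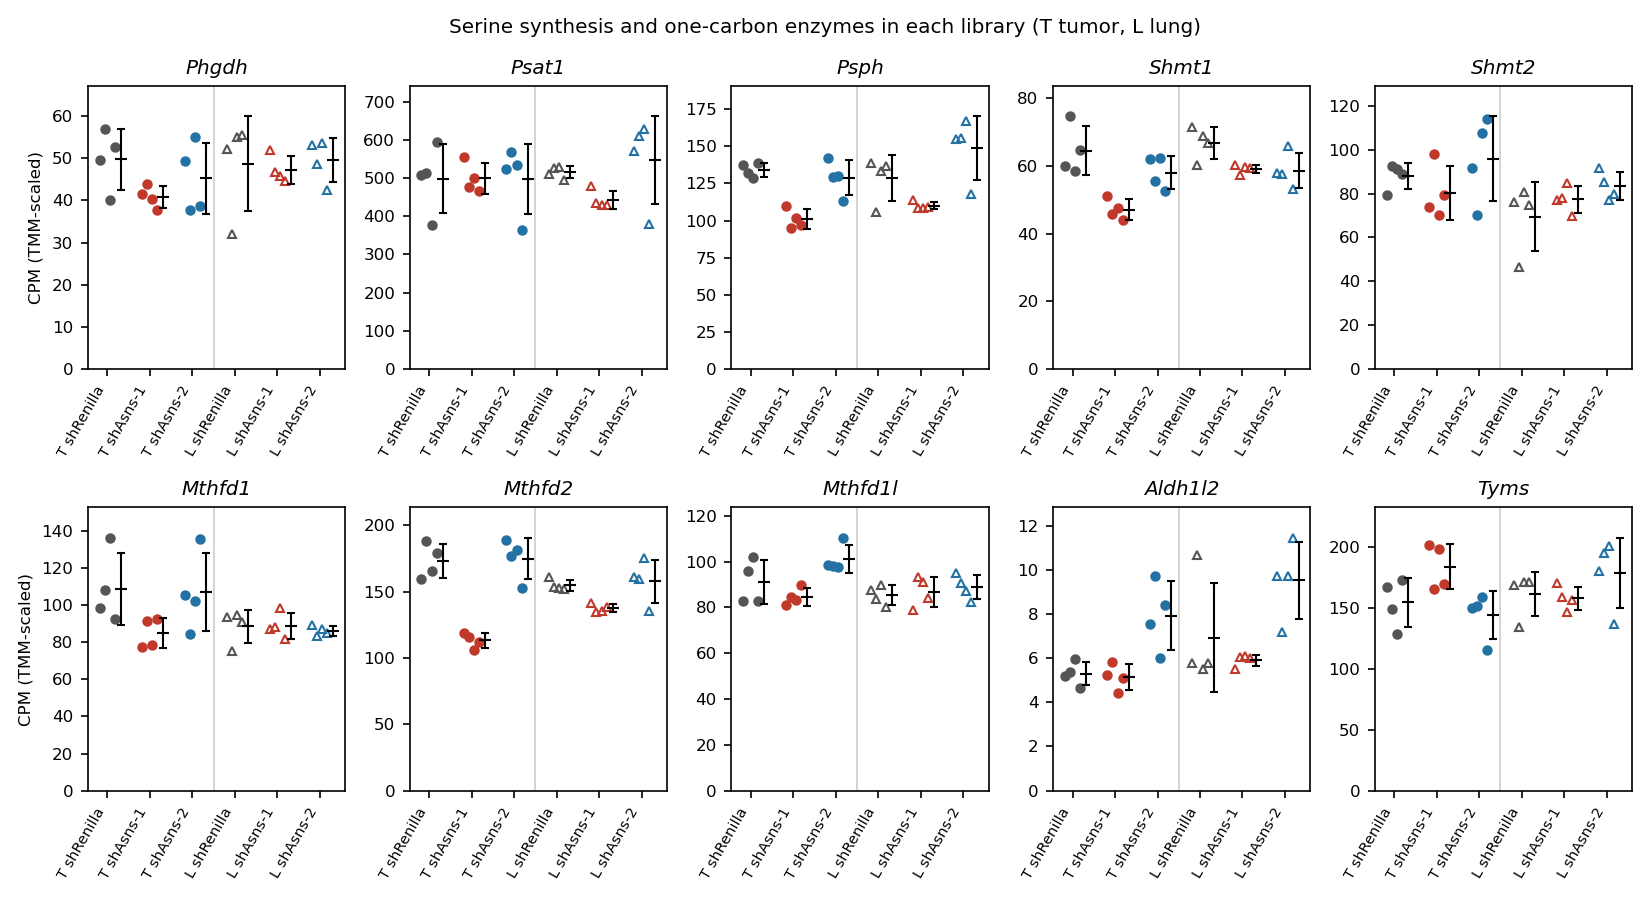
CPM of each enzyme in all 24 libraries, by group (T tumor, filled circles; L lung, open triangles); points run from A to D, and the black bar is the mean ± SD of 4 libraries. Mthfd2 in the tumor libraries labelled shAsns-1 lies at 106 to 119 CPM, below every other library, and Aldh1l2 lies at 7.18 to 11.4 CPM in lung shAsns-2.

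In tumor cells labelled shAsns-2, whose Asns RNA was below control, none of the 10 enzymes was called. The background was small as well: 0.0396% of all tested genes rose and 0.0238% fell. At an unadjusted p under 0.05, 1 of the 10 passed in edgeR (893 of all tested genes did, 7.07%), and DESeq2 and limma called 0 of the 10. That gene was Aldh1l2 (chr10:83487450-83534140), at 7.53, 9.74, 6.00 and 8.40 CPM against 5.19, 5.35, 5.94 and 4.66 CPM. All 4 libraries lay above all 4 controls, by a narrow gap between 6.00 and 5.94, as did those of 1.87% of all tested genes. The log2 difference was 0.59 ± 0.19 (95% interval 0.20 to 0.97; edgeR adjusted p = 0.405). D10Wsu102e, on the other strand, averaged 68.0 against 77.7 CPM. The other 9 enzymes had log2 differences from -0.15 to 0.15. Mthfd2, at 188, 177, 182 and 153 CPM, had a log2 difference of 0.01 with an interval from -0.17 to 0.20, so its interval held no fall of the size measured under the label shAsns-1.

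Set directly against each other, the tumor libraries of the 2 Asns hairpins differed in 6 of the 10 enzymes. Mthfd2, Psph, Shmt1, Mthfd1l and Aldh1l2 were lower and Tyms was higher under the label shAsns-1, while 15% of all tested genes were lower and 12.1% higher. This comparison shares its shAsns-1 libraries with the one above, so it is no independent support for it. Mthfd2 differed by -0.63 ± 0.09 on the log2 scale (edgeR adjusted p = 9.54e-06, called by all 15 alternatives). Aldh1l2 differed by -0.63 ± 0.19 (edgeR adjusted p = 0.0142), a call lost without tumor shAsns-1 C or without tumor shAsns-2 B (adjusted p of at most 0.0648). D10Wsu102e, on the other strand of Aldh1l2, averaged 62.8 ± 2.13 under the label shAsns-1 and 68.0 ± 5.05 CPM in tumor shAsns-2.

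The other calls between the hairpins were smaller. Psph differed by -0.35 (edgeR adjusted p = 0.0150; 0.0809 at most, lost without tumor shAsns-2 A and without a filter on low counts). Shmt1 differed by -0.30 (edgeR adjusted p = 0.0198), lost without that filter and without tumor shAsns-1 B or D or tumor shAsns-2 A or C (up to 0.0962). Mthfd1l differed by -0.26 (edgeR adjusted p = 0.0300), lost in 6 of 15 alternatives: without the filter, and without tumor shAsns-1 A, B or C or tumor shAsns-2 A or D (up to 0.158). Its shAsns-2 libraries stood at 98.6, 98.3, 97.6 and 110 CPM and those labelled shAsns-1 at 81.0, 84.4, 83.1 and 89.8 CPM, without overlap. Every tumor library labelled shAsns-1 lay below every tumor shAsns-2 library in 15.8% of all tested genes. Among the enzymes this was so for Psph, Shmt1, Mthfd2, Mthfd1l and Aldh1l2.

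Tyms stood at 202, 166, 199 and 170 CPM under the label tumor shAsns-1 and at 150, 152, 159 and 116 CPM in tumor shAsns-2. The groups did not overlap, as was so, with shAsns-1 higher, for 13.9% of all tested genes. The lowest Tyms value was that of shAsns-2 D. The log2 difference was 0.35 ± 0.13 (edgeR adjusted p = 0.0387; 0.0468 when Tyms and Tyms-ps were summed), lost without tumor shAsns-1 A or C or tumor shAsns-2 A or D (up to 0.143). Mthfd1 missed the threshold in the same comparison, at -0.33 (95% interval -0.59 to -0.07; edgeR adjusted p = 0.0522), and was called by limma, without tumor shAsns-2 B and without both lung libraries that stand apart.

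In cells from lung metastases, none of the 10 enzymes was called for either hairpin by edgeR. Of all tested genes, 0.0713% rose and 0.135% fell in the lung libraries labelled shAsns-1, and 0% rose and 0% fell in those labelled shAsns-2. At an unadjusted p under 0.05 the edgeR fit gave 1 of the 10 for each hairpin, Psph for shAsns-1 and Aldh1l2 for shAsns-2, DESeq2 called 0 for each, and limma with library weights called 2 and 3. Over all tested genes, edgeR gave 13.2% and 8.46% at an unadjusted p under 0.05, and limma called 6.68% and 12.5%, for shAsns-1 and shAsns-2.

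Psph in lung stood at 139, 106, 133 and 137 CPM in shRenilla, at 114, 109, 108 and 109 CPM under the label shAsns-1, and at 155, 156, 167 and 118 CPM in shAsns-2. The control library B lay below all others, and shAsns-2 D lay below its own group. Against control, the log2 difference was -0.22 (95% interval -0.44 to -0.01, edgeR adjusted p = 0.362) for the label shAsns-1. Between the 2 hairpins it was -0.43 ± 0.10 (edgeR adjusted p = 0.0779), and the call passed without shAsns-2 D and by DESeq2 and limma. Mthfd2 stood at 161, 154, 153 and 152 CPM in lung shRenilla and at 141, 135, 136 and 139 CPM under the label shAsns-1, groups that did not overlap. Its log2 difference was -0.17 (95% interval -0.35 to 0.01; edgeR adjusted p = 0.403).

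Shmt1 and Psat1 also lay lower in all 4 lung libraries labelled shAsns-1 than in all 4 controls, 3 of 10 enzymes with Mthfd2, and none passed. All 4 lay below all 4 controls in 6.01% of all tested genes, and for Shmt1 the gap was under 0.1 CPM, with 60.1 CPM on either side. Shmt1 averaged 59.1 ± 1.26 against 66.7 ± 4.77 CPM (log2 difference -0.17, interval -0.37 to 0.02). Psat1 averaged 443 ± 23.7 against 515 ± 15.7 CPM (-0.22, interval -0.52 to 0.08). In lung shAsns-2, Psat1 stood at 571, 610, 628 and 380 CPM, with D alone below the controls.

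Aldh1l2 in lung stood at 5.76, 10.6, 5.52 and 5.78 CPM in shRenilla and at 9.72, 7.18, 9.73 and 11.4 CPM in shAsns-2. The groups overlapped only through shRenilla B, which is the library apart on the second principal component. The log2 difference was 0.46 (95% interval 0.08 to 0.83; edgeR adjusted p = 0.491, limma 0.00243). Between the hairpins in lung, where 0.143% of all tested genes were higher and 0.119% lower under the label shAsns-1, the edgeR fit called 0 of the 10 and gave 4 at an unadjusted p under 0.05 (5.60% of all tested genes). Aldh1l2 was among these at -0.69 ± 0.18 (edgeR adjusted p = 0.140), and it and Psph were the 2 that DESeq2 called and that edgeR called without both lung libraries that stand apart.

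**Figure D3:**
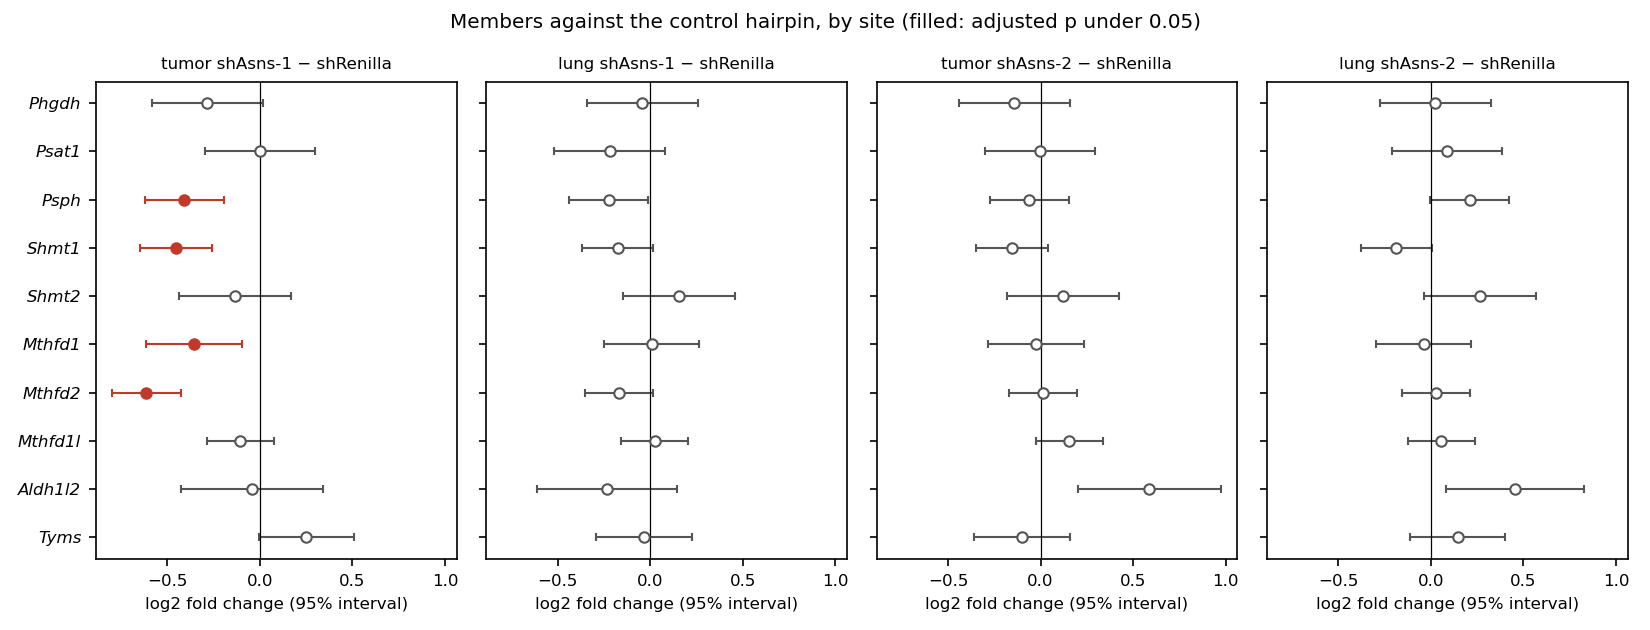
Log2 fold change of each enzyme against shRenilla at the same site, with its 95% interval, for the 4 hairpin comparisons; filled points have an edgeR adjusted p under 0.05. The 4 filled points are Mthfd2 (-0.61), Shmt1 (-0.45), Psph (-0.41) and Mthfd1 (-0.36) in tumor cells labelled shAsns-1.

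Between sites, control cells showed no called difference in the 10 enzymes, although 12% of all tested genes were higher and 9.82% lower in lung than in tumor shRenilla. At an unadjusted p under 0.05 there were 3 of the 10, close to the 33.7% of all tested genes, while DESeq2 called 0 and limma 1 (36.6% of all tested genes). They were Shmt2, at 76.3, 46.4, 80.8 and 74.6 CPM in lung and 79.4, 92.8, 91.2 and 88.9 CPM in tumor (log2 difference -0.34, edgeR adjusted p = 0.0994), Mthfd1 (-0.30, 0.0908) and Aldh1l2 (0.39, 0.136). Lung shRenilla B was the lowest in Shmt2 and the highest in Aldh1l2. In shAsns-2, where 10.1% of all tested genes were higher and 10.9% lower in lung, edgeR again called 0 of the 10, with 3 at an unadjusted p under 0.05 (33.7% of all tested genes), DESeq2 called 0 and limma 3 (40.1%). Mthfd1 differed by -0.31 (edgeR adjusted p = 0.0802) and Tyms by 0.31 (0.0831) there. Tyms was lowest of its group in lung shAsns-2 D, at 137 CPM. Without that library Tyms and Psph were called, beside 1947 higher and 2030 lower of 12713 genes.

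Under the label shAsns-1, 2 of the 10 were higher in lung than in tumor and 0 lower, against 6% and 2.54% of all tested genes. Shmt1 differed by 0.33 ± 0.09 (edgeR adjusted p = 0.0288), with 60.1, 57.3, 59.8 and 59.2 CPM in lung above 51.2, 45.7, 47.5 and 43.9 CPM in tumor. Mthfd2 differed by 0.28 ± 0.09 (edgeR adjusted p = 0.0491), with 135 to 141 CPM in lung above 106 to 119 CPM in tumor. Both calls were fragile, although the groups did not overlap: Shmt1 was called in 7 of 15 alternatives (adjusted p up to 0.103) and Mthfd2 in 4 of 15 (up to 0.166), and leaving out any of the 8 libraries lost the Mthfd2 call. The Shmt1 call was lost without the filter on low counts and without any 1 of these libraries except tumor shAsns-1 A. All 4 lung libraries lay above all 4 tumor libraries in 15.5% of all tested genes, against 3 of the 10 enzymes (Phgdh, Shmt1 and Mthfd2). Marker sums moved with the site. The 9 fibroblast markers ran from 24.0 to 32.4 CPM in tumor and from 34.3 to 70.0 CPM in lung under this label. Within that lung group Pdgfra ran from 28.4 to 41.2 and Dcn from 1.31 to 8.61 CPM. Col1a2 ran from 0.895 to 8.53 and Col3a1 from 0.311 to 8.53 CPM, so the highest values do not stand for the whole group. The 10 leukocyte markers ran from 11.1 to 15.0 CPM in tumor (Ms4a1 at 0) and from 17.6 to 27.7 CPM in lung (Cd3e at 0). In that lung group Cd14 ran from 13.9 to 18.9 and Lyz2 from 1.36 to 7.84 CPM. In lung shRenilla the sums were 26.4 to 51.3 and 20.3 to 24.8 CPM, and in lung shAsns-2 23.9 to 27.1 and 16.3 to 19.5 CPM. The part of these markers in the differences was not tested.

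The difference of the hairpin effects between sites was tested directly. For the label shAsns-1, Mthfd2 was the 1 enzyme called: its log2 change was -0.61 in tumor and -0.17 in lung, a difference of 0.44 ± 0.13 (95% interval 0.18 to 0.70; edgeR adjusted p = 0.0193). The call held in 22 of 23 alternatives and was lost without a filter on low counts (adjusted p = 0.0845). Of all tested genes, 6.96% had a higher and 7.27% a lower effect in lung, so 1 of 10 is close to the background. For Psph, Shmt1 and Mthfd1, called in tumor alone, the differences of 0.18, 0.28 and 0.36 did not pass (edgeR adjusted p = 0.423, 0.160 and 0.171), so no difference between sites is shown for them. For shAsns-2 no enzyme was called by edgeR, DESeq2 or limma, 0 of the 10 had an unadjusted p under 0.05, and 0% of all genes were higher and 0% lower.

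Some variation ran within groups. Psat1 was lowest of its group in tumor shRenilla C (376 CPM), tumor shAsns-2 D (363) and lung shAsns-2 D (380), and Tyms was lowest of its group in the same 3 libraries (129, 116 and 137 CPM). In the 2 tumor libraries of these, Mthfd1 was the highest of its group, at 136 CPM in each. Lung shRenilla B was the lowest of its group in Phgdh (32.01 CPM), Psph (106), Shmt1 (60.1), Shmt2 (46.4), Mthfd1 (75.4) and Tyms (135). These libraries were kept.

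Genes that feed and use the pathway were followed in 7 lists of 59 genes, of which 52 had enough counts. In tumor cells labelled shAsns-1 against shRenilla, 11 of the 52 rose and 12 fell, against 16.2% and 17.7% of all tested genes, so the shares were near the background, and the counts by list below are read beside that. For shAsns-2 against control in tumor, edgeR, DESeq2 and limma each called 0 of the 52. At an unadjusted p under 0.05, edgeR gave 7 of the 52, against 7.07% of all tested genes. In lung, edgeR and DESeq2 called 0 for either hairpin. The edgeR fit gave 6 (shAsns-1) and 4 (shAsns-2) at an unadjusted p under 0.05, against 13.2% and 8.46% of all tested genes. For the same hairpins limma called 2 and 6 of the 52, against 6.68% and 12.5% of all tested genes. The median log2 fold change of the 52 was -0.04 in the first comparison, against -0.01 over all tested genes.

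Purine synthesis, which takes up formyl groups from folate, had 0 of 6 higher and 3 of 6 lower. Gart, whose enzyme includes the first formyl transfer, fell from a mean of 122 to 76.1 CPM (log2 fold change -0.68 ± 0.09, edgeR adjusted p = 1.08e-06). Adsl, adenylosuccinate lyase, fell by 0.60 (edgeR adjusted p = 0.000199), and Pfas by 0.33 (0.0307, called in 9 of 15 alternatives, and not without the filter on low counts, nor without tumor shAsns-1 B, C or D or tumor shRenilla A or C, up to 0.115). Of 10 tested folate enzymes and carriers, 2 rose and 2 fell. The plasma membrane folate carrier Slc19a1 fell from 49.1 to 21.1 CPM (-1.22 ± 0.16, edgeR adjusted p = 1.79e-06), and the mitochondrial carrier Slc25a32 fell by 0.40 (0.0137), while Mthfs, which returns folinic acid to the pool, rose by 0.68 (0.000209). Mean Slc19a1 was 24.2, 21.7 and 22.6 CPM in lung shRenilla, shAsns-1 and shAsns-2.

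Of the serine carriers, Slc1a5, a neutral amino acid carrier, fell from a mean of 89.96 to 48.3 CPM (-0.90 ± 0.17, edgeR adjusted p = 0.000247), and Sfxn3, a sideroflexin of mitochondria, rose from 16.8 to 30.6 CPM (0.87 ± 0.13, edgeR adjusted p = 8.31e-06), 1 lower and 1 higher of 5 tested. In the methionine cycle and transsulfuration, 2 of 6 rose and 3 fell. Cth, which makes cysteine from cystathionine, rose from 9.07 to 21.3 CPM (1.23 ± 0.21, edgeR adjusted p = 6.30e-05), Mat2b rose by 0.41 (0.0140, lost without tumor shRenilla C at 0.0664), and Mat2a, which makes S-adenosylmethionine, fell by 0.50 (0.00410). Of the glycine cleavage system, 0 of 3 tested genes passed in edgeR, where Dld had an adjusted p of 0.0611 and Gldc of 0.125.

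S phase and thymidine nucleotide genes, which are read beside Tyms, had 3 of 12 higher and 1 lower. Tk1, thymidine kinase, rose by 0.49 (edgeR adjusted p = 0.0131), Pcna by 0.37 (0.0156) and Dtymk by 0.28 (0.0478, called in 8 of 15 alternatives), and their part in the Tyms values was not tested. Of 10 amino acid response genes, 3 rose and 2 fell. Atf3 fell from 11.0 to 4.61 CPM (-1.26 ± 0.12, edgeR adjusted p = 9.33e-09), while Cebpb rose by 1.06 (2.36e-06) and Nfe2l2 by 0.76 (2.10e-05). Atf4, the factor named above and the other gene that fell, moved by -0.33 ± 0.12 (edgeR adjusted p = 0.0311), and Ddit3 by 0.56 (0.0167). The directions within this list were thus mixed.

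**Figure D4:**
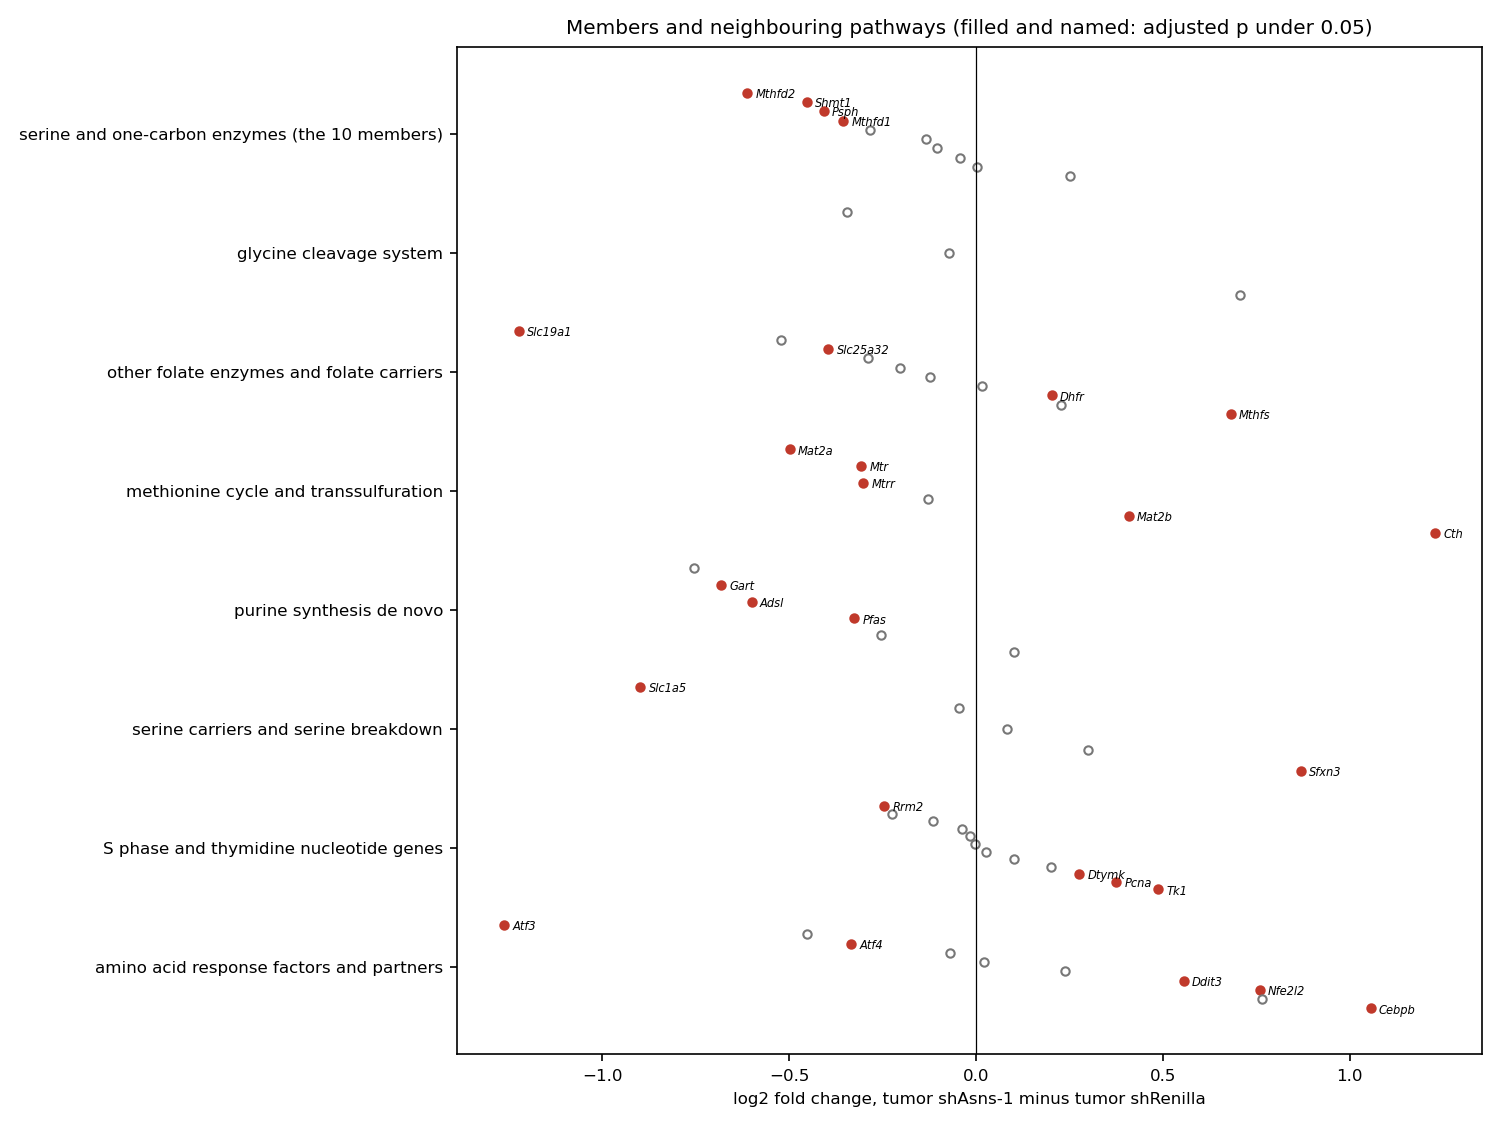
Log2 fold change, tumor shAsns-1 minus tumor shRenilla, of the 10 enzymes and of the 52 tested genes of 7 neighbouring lists; filled, named points have an edgeR adjusted p under 0.05. Slc19a1 (-1.22) and Atf3 (-1.26) lie farthest left and Cth (1.23) farthest right.

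The hairpin effects on several of these genes differed between sites under the label shAsns-1, with 6 of 52 higher and 6 lower in lung minus tumor, beside 6.96% and 7.27% of all tested genes. The difference was 1.07 for Slc19a1, 0.87 for Slc1a5, 0.66 for Gart and 1.52 for Atf3, and -1.72 for Cth and -0.73 for Sfxn3. In control cells, Slc19a1 was lower by 1.02 and Slc1a5 by 0.81 in lung than in tumor on the log2 scale. Gart was lower by 0.35 and Atf3 by 0.71, while Sfxn3 was higher by 0.57 and Cth by 0.67. The contrasts of site and hairpin share the tumor shRenilla libraries, so these values are set side by side only.

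Likeness was measured as the root mean square difference of centred log2 CPM over the 24 libraries, among 8012 genes with a mean log2 CPM of at least 3. The genes nearest to Mthfd2 were the aminoacyl-tRNA synthetases Tars (0.0762), Lars (0.0916) and Mars (0.114), against a spread of Mthfd2 itself of 0.232. Those nearest to Psph were also of that family: Lars (0.136), Nars (0.144) and Cars (0.145), against its own 0.217. Atf4 was the second nearest to Mthfd1 (0.0980), between Eif1 (0.0967) and Polr3d (0.102). The nearest to Shmt1 were Nup93 (0.0690), Umps (0.0759) and Nono (0.0763). No enzyme was among the 3 nearest of another. For Phgdh the nearest was Tuba1c (0.0869), for Psat1 Hnrnph2 (0.0952), for Shmt2 Baiap2 (0.110), for Mthfd1l Myh10 (0.0777), for Tyms Sri (0.0793) and for Aldh1l2 Glrp1 (0.261), the last at a far greater distance on its low counts.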

How the data were processed

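RNA counts of 24 libraries (6 groups of 4) were analysed. Per the labels, total RNA was extracted with Trizol and libraries were made with the NuGEN Ovation RNAseq V2 kit, and the submitters' processing notes name Bowtie2, HTSeq and the build mm10. Versions, annotation, strand setting and filters are not given in the sources used here. Deposited values are unnormalized read counts, 1 row a gene symbol, and entered the fits unchanged. Libraries within a group differed by a chi-square per degree of freedom of at least 4.74, so none repeated another.

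The test was that of edgeR 4.0.16 (R 4.3.3): TMM scaling, the default filter on low counts (12625 of 23478 genes tested), 1 mean per group over 24 libraries, a robust quasi-likelihood test per comparison and Benjamini-Hochberg adjustment over all tested genes, with a threshold of 0.05. The biological coefficient of variation was 14.9%. CPM used TMM-scaled totals, and levels per kilobase used GENCODE M21 exon lengths. The edgeR step was tested on simulated data. Alternatives were DESeq2 1.42.0, its size factors, no filter, limma 3.58.1 with library weights, only the compared groups, a replicate block and each library left out. Chosen after seeing the data were leaving out both lung libraries that stand apart, and summing Tyms or Phgdh with counted copies. The enzymes and lists were chosen with earlier results of these data known. All 10 enzymes are named; of the other lists, at most 3 called genes per comparison, by size of change, with a mean log2 CPM over 1; Atf4, Ddit3 and the overlapping neighbours were named after their values were seen.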

Additional observations from a re-analysis of the deposited data

Results flagged for a closer look

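In 60 groups of 4 libraries (10 enzymes in 6 groups), the gap from 1 extreme library to its nearest neighbour was compared with the range of the group, and 7 passed Dixon's critical value at 95%. Chance passes about 1 group in 20. Lung shRenilla B was the library apart in 3: Phgdh was low there at 32.01 CPM, Tyms low at 135 CPM and Aldh1l2 high at 10.6 CPM. Lung shAsns-1 A was apart in 3, within a group of small spread: Psat1 was high at 478 CPM, Psph high at 114 CPM and Aldh1l2 low at 5.52 CPM. Mthfd1l was high in tumor shAsns-2 D, at 110 CPM. The effect of the label shAsns-1 on Mthfd2 differed between sites, with a log2 difference of 0.44 (lung minus tumor) by the test of that difference.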

How the results depend on the processing

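Of 1832 alternative values for the 110 log2 differences of members (10 enzymes in 11 comparisons), 1749 kept their side of the threshold, 43 lost a call, 40 gained one and 0 called values turned direction. Another 100 differed in sign with no call on either side. Counts of members called moved as follows. For tumor shAsns-1 against shAsns-2 (6), no filter gave 3 (1422 higher and 1520 lower of 21371 genes). Leaving out 1 library gave 2 to 6, beside 1222 to 1461 higher and 1427 to 1805 lower over all tested genes. limma with library weights gave 2 for lung shAsns-1 (6.68% of all tested genes) and 3 for lung shAsns-2 (12.5%) against control, where edgeR gave 0. Between the lung hairpins (0), DESeq2 gave 2, limma 5, both far lung libraries left out 2, and leaving out 1 library 0 to 1. Of all tested genes there, limma called 15.2%, DESeq2 called 36 higher and 28 lower, and leaving out both far lung libraries 109 higher and 71 lower. Leaving out 1 library gave 1 to 47 higher and 5 to 37 lower. For lung against tumor in shRenilla (0), limma gave 1 (36.6% of all tested genes) and leaving out 1 library, tumor shRenilla D, gave 0 to 1. Without tumor shRenilla D, 1357 of 12735 genes were higher and 1251 lower. In shAsns-1 (2), DESeq2 size factors gave 1, beside 667 higher and 399 lower of 12625 genes. No filter gave 0, beside 605 higher and 275 lower of 21371 genes. Leaving out 1 library gave 0 to 1, beside 303 to 595 higher and 109 to 235 lower over all tested genes. Only the compared groups gave 4, beside 1837 higher and 1846 lower of 12027 genes, and limma gave 4, beside 32.8% of all tested genes. In shAsns-2 (0), limma gave 3 (40.1% of all tested genes). Leaving out 1 library gave 0 to 2, beside 891 to 1947 higher and 891 to 2030 lower over all tested genes. Leaving out both far lung libraries gave 2, beside 2286 higher and 2640 lower of 12697 genes. For the shAsns-1 effect between sites (1), no filter gave 0 (644 higher and 794 lower of 21371 genes) and limma 3 (29.4% of all tested genes). The cause was not tested.

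The replicate block, with letters A to D as a factor, gave 1 of the members for lung against tumor in shAsns-1. Over all 12625 tested genes it gave 776 higher and 374 lower there. It left each other count of members within 1.5 times. Whether a letter marks a shared mouse or day is not given. Deviations of same-lettered libraries correlated at -0.41 to 0.35, and a library was nearest to its own letter in 8 of 36 cases. The comparisons reuse the same libraries, so these values do not decide whether the letters were paired.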
